A study of Mus musculus with 16 samples.

Results

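Acp5 is the gene of tartrate-resistant acid phosphatase, and it was followed here as the row of that name, 1 of 20490 genes in the deposited expression table. It was measured in RAW264.7 cells, an established mouse macrophage line that the labels call an osteoclast precursor. The cells attached for 12 h and then received PBS, a saline control; RANKL at 10 ng/mL, a recombinant mouse protein fused to GST; extracellular vesicles of PC3M cells, a human prostate cancer line, at 30 µg/mL; or RANKL and vesicles together. Each of these 4 treatments was harvested at 48 h and at 72 h, with 2 libraries in each of the 8 groups and 16 libraries in all. The study asked how the vesicles bear on osteoclast differentiation. All groups share 1 cell line, no genetic change and the same medium, and the labels leave unsaid whether the paired libraries derive from different dishes. P-values therefore measure only the spread between these libraries, which may be technical.

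The phosphatase is a small enzyme with an iron centre that works at acid pH and resists tartrate. Osteoclasts, the multinucleated cells that dissolve bone, make large amounts of it and release it at the bone surface, so that staining for it is the usual way to count them. RANKL, the cytokine that drives macrophage precursors to become osteoclasts, acts through its receptor RANK, NF-kB, AP-1 factors and NFATc1, and Acp5 is a textbook target of NFATc1, PU.1 and MITF. In the cell the enzyme is made as a single chain, cut by cathepsins in its loop and carried in lysosome-related vesicles, and osteopontin is among its known substrates.

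RefSeq places Acp5 on the minus strand of mouse chromosome 9 (GRCm38.p6) with 3 annotated starts, and the 250 bases before each are shown because transcription factors that rise with Acp5 are named further on. The expression values are 1 per gene and do not say which start was used. All are 5′ to 3′ on the strand of the gene, at chr9:22135747-22135996, chr9:22131866-22132115 and chr9:22130599-22130848 in this order. Capitals mark GGAAA, the core letters of NFAT sites, or their reverse TTTCC where the match is on the other strand. They also mark CACATG before start 3, the core of MITF sites read on the other strand.
Start 1: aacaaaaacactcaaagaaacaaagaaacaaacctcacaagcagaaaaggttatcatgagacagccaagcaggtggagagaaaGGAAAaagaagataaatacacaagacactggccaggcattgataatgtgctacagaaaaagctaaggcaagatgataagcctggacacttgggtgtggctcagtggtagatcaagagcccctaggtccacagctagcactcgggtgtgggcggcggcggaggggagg
Start 2: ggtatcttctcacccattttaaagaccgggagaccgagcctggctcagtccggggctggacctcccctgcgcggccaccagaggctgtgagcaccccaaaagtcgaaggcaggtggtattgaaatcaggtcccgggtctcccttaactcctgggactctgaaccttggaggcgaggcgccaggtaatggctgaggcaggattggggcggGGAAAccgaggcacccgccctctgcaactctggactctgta
Start 3: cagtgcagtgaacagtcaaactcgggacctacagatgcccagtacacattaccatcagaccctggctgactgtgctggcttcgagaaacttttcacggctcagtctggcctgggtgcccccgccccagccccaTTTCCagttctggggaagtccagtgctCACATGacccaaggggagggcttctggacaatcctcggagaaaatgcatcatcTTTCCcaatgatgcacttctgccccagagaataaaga
The NFAT letters occurred 1 time before start 1, 1 time before start 2 and 2 times before start 3, and the MITF letters lie 90 to 85 bases before start 3. Over both strands, GGAAA is in 55.6% of 32851 mouse windows of this length, and the MITF core CATGTG is in 12.3% of them. The E-box CACGTG had no match in these 3 windows and is in 6.02% of all windows. The AP-1 letters TGANTCA had none and are in 6.75%, and the PU.1 letters GAGGAA had none and are in 23.3%. A match describes letters and says nothing about binding.

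Values are given as RPKM, reads scaled to gene length and library size, obtained from deposited values taken as log2(RPKM + 1). Estimated depth was 18.37 to 20.01 M reads per library. At this depth 1 RPKM of Acp5 is worth about 37.3 to 40.6 reads over its merged annotated exons, 2.03 kb. Between 14779 and 15633 genes were above 0, and mitochondrial genes took 19.3% to 26.9% of summed RPKM. Ribosomal protein genes took 11.1% to 11.5% in 5 libraries, both vesicle libraries and both combination libraries of 72 h and RANKL replicate 2 of 72 h, and 8.23% to 9.84% in the other 11. Macrophage genes were abundant in the PBS cells: Cd68, a lysosomal macrophage protein, was at 1255 ± 88.8 RPKM and Csf1r, the M-CSF receptor, at 309 ± 21.6 RPKM at 48 h (SD, n = 2). The 5 epithelial markers in the table, among them Epcam and Krt8, summed to at most 0.129 RPKM in any library, and Krt8 was at 0 in 15 of 16. The 9 stromal and bone-forming markers summed to 0.275 to 1.52 RPKM, with Col1a1 at 0 in 15 of 16 libraries. The column of 1 of the 2 combination libraries of 48 h matches no sample title, and the plus sign and time in its name put it in that group. Without it Acp5 kept its side of the threshold at 48 h for both against PBS (6.94, adjusted p = 9.2e-07), against vesicles (3.45, adjusted p = 4.7e-04) and against RANKL (1.26, adjusted p = 0.216), log2 differences of the kind given below, and for both at 72 h against 48 h (1.36, adjusted p = 0.0257). In these bulk cultures, more cells that make Acp5 and more Acp5 RNA in each cell cannot be told apart.

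In PBS cells Acp5 was barely expressed. It was at 0.564 and 0.872 RPKM at 48 h and at 0.642 and 0.437 RPKM at 72 h, which is about 17.6 to 32.7 reads and a rank between 9838 and 10650 among all genes. The libraries of the 2 times overlapped, and the change from 48 h to 72 h was -0.16 ± 0.26 on the log2(RPKM + 1) scale (limma, adjusted p = 0.882), where 0.646% of 10365 tested genes were called. All log2 differences below are on this scale with their standard error. A gene is called at a limma adjusted p under 0.05 over all tested genes, and the scale understates changes from the low PBS level. For Acp5 the error is estimated over all 8 groups and moderated over genes, so it is 0.26 for every pair of groups. The SD of a single group ran from 0.030 (RANKL at 48 h) to 0.631 (RANKL at 72 h) on this scale.

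RANKL alone took Acp5 from this floor to one of the more abundant transcripts. It was at 88.0 and 85.4 RPKM after 48 h, with a mean of 86.7 ± 1.80 against 0.718 ± 0.218 RPKM in PBS (SD, n = 2 each), a 120.8-fold ratio of means. After 72 h it was at 166 and 309 RPKM, with a mean of 238 ± 101 against 0.540 ± 0.145 RPKM, a 440-fold ratio. Every RANKL library was above every PBS library, and the 72 h pair was the more uneven. The log2 differences were 5.68 ± 0.26 at 48 h (adjusted p = 2.0e-07) and 7.21 ± 0.26 at 72 h (adjusted p = 1.1e-08), where 14.8% and 18.9% of genes were called. At both times this was the largest rise of the 10365 genes.

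Vesicles without RANKL raised Acp5 as well, to a lower level. It was at 20.5 and 16.2 RPKM after 48 h and at 41.5 and 34.0 RPKM after 72 h, with means of 18.3 ± 3.02 and 37.7 ± 5.31 RPKM. All 4 vesicle libraries lay above all 4 PBS libraries and below all 4 RANKL libraries. The ratios of means to PBS were 25.5 at 48 h and 69.9 at 72 h, with log2 differences of 3.49 ± 0.26 (adjusted p = 2.5e-05) and 4.65 ± 0.26 (adjusted p = 2.4e-06). The background differed: 1.29% of genes were called at 48 h and 18.3% at 72 h. Both shares changed when 1 library was left out, the 72 h share most widely. Acp5 again had the largest rise of all tested genes at both times. Against RANKL alone the vesicle level was lower by 4.73-fold at 48 h and 6.30-fold at 72 h, log2 differences of -2.19 ± 0.26 (adjusted p = 4.1e-04, 6.95% of genes called) and -2.56 ± 0.26 (adjusted p = 1.7e-04, 18.6% called).

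Acp5 was highest with RANKL and vesicles together. It was at 209 and 168 RPKM after 48 h, the latter in the column assigned by its name, and at 663 and 435 RPKM after 72 h, where it ranked 63 and 95 among all genes. The means were 188 ± 29.3 and 549 ± 161 RPKM, or 262 and 1017 times PBS, with log2 differences of 6.78 ± 0.26 (adjusted p = 1.9e-08, 22.1% of genes called) and 8.45 ± 0.26 (adjusted p = 1.5e-09, 41.9% called). Relative to vesicles alone the level was 10.3 times as high at 48 h and 14.6 times at 72 h, log2 differences of 3.29 ± 0.26 (adjusted p = 2.9e-05, 9.53% called) and 3.80 ± 0.26 (adjusted p = 4.2e-06, 22% called).

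**Figure D1:**
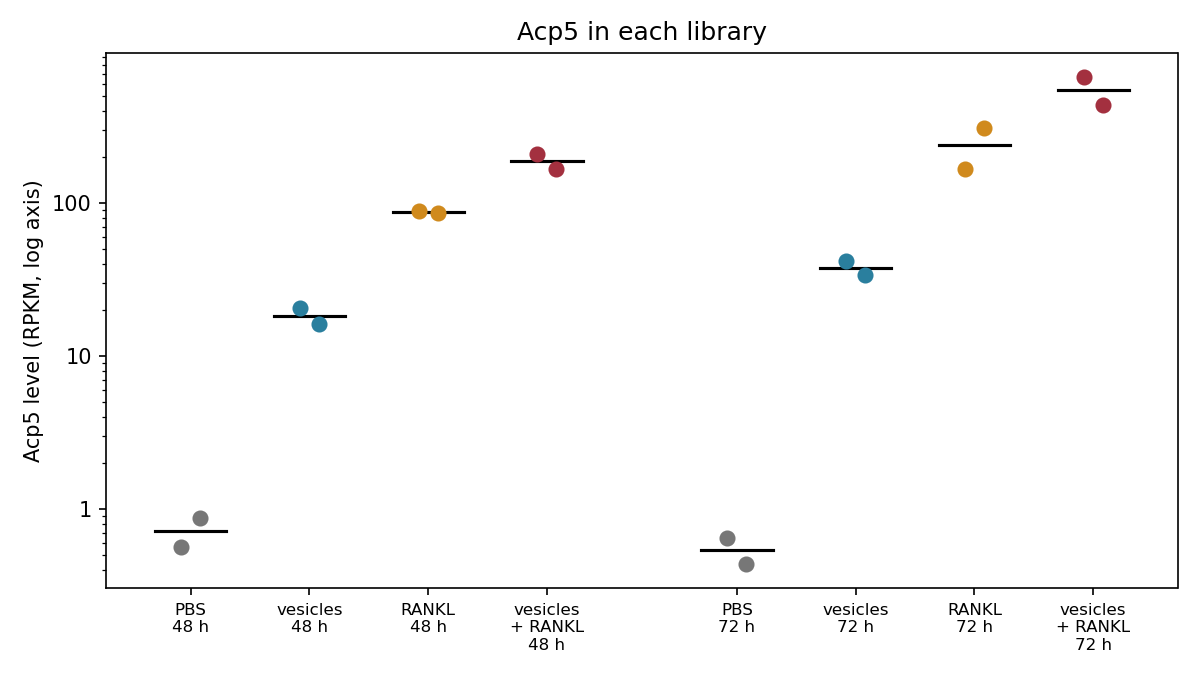
Acp5 level in RPKM (log axis) in each of the 16 libraries, grouped by treatment and time. Points are libraries and lines are means of 2 libraries; PBS lies under 1 RPKM, vesicles between 16.2 and 41.5, RANKL between 85.4 and 309, and both together between 168 and 663.

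On the log2 scale, vesicles added to RANKL gave smaller differences than either stimulus gave over PBS. On the RPKM scale this did not hold: means went from 86.7 to 188 RPKM at 48 h and from 238 to 549 at 72 h. With RANKL over PBS they went from 0.718 to 86.7 and from 0.540 to 238 RPKM. At 48 h the combination was 2.17 times RANKL alone and the libraries did not overlap, with a log2 difference of 1.10 ± 0.26, but the adjusted p was 0.0914, in a comparison where 0.434% of genes were called. At 72 h it was 2.31 times RANKL alone, again without overlap, and the difference of 1.24 ± 0.26 was called (adjusted p = 0.0330, 1.83% of genes called). That call was lost without RANKL replicate 1 of 72 h (0.79, adjusted p = 0.374) and without combination replicate 1 of 72 h (0.94, adjusted p = 0.390). It was also lost with a pseudocount of 0.1, with no filter on low values and with only the compared groups in the model. The RANKL libraries of 72 h also differ in ribosomal protein share: replicate 2, at 11.4%, had the higher Acp5 of the pair and replicate 1, at 9.60%, the lower. The part of this share in the result was not tested.

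Time added to the level in all 3 treated groups. From 48 h to 72 h Acp5 was 2.06 times as high with vesicles (log2 1.0 ± 0.26, adjusted p = 0.0130), 2.74 times with RANKL (1.38 ± 0.26, adjusted p = 0.0165) and 2.91 times with both (1.51 ± 0.26, adjusted p = 0.00162). The background over all genes was 32.3%, 6.03% and 38.9% called. The vesicle call was lost without replicate 2 of 48 h (0.84, adjusted p = 0.0970) and without replicate 1 of 72 h (0.86, adjusted p = 0.102). The RANKL call was lost without replicate 1 of 48 h (1.40, adjusted p = 0.0579), replicate 2 of 48 h (1.35, adjusted p = 0.192) or replicate 2 of 72 h (0.93, adjusted p = 0.0920), while the call for both held without any single library. Whether the response itself grew with time was tested as a difference of differences: it was 1.16 ± 0.36 for vesicles (adjusted p = 0.160, 0.0193% of genes called) and 1.53 ± 0.36 for RANKL (adjusted p = 0.196, 0.0289% called), and neither was called. Without RANKL replicate 1 of 72 h the latter was 1.98 (adjusted p = 0.0122).

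Over the whole design, RANKL, vesicles and time were each tested on Acp5 alone by a two-sided exact permutation test, with labels exchanged only within the 4 strata of the other factors. RANKL added 5.00 on average on the log2 scale and vesicles 2.62, and for both p was 0.00154, the smallest this design can give (adjusted over the 3 tests, 0.00231). Every stratum rose with RANKL, by 3.29 to 7.21, and with vesicles, by 1.10 to 4.65. Time added 0.93 (exact p = 0.00772, adjusted 0.00772), with PBS as the stratum that did not rise.

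**Figure D2:**
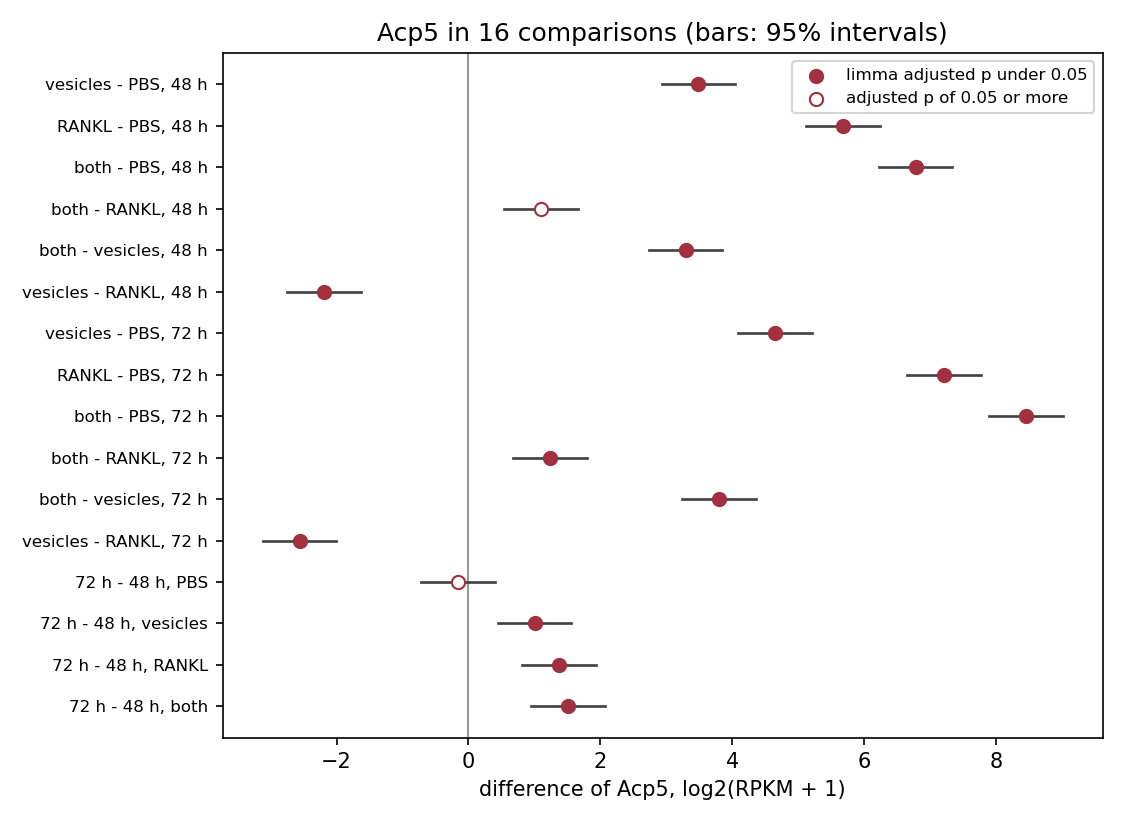
Difference of Acp5 on the log2(RPKM + 1) scale in 16 comparisons, with 95% intervals from limma; filled points have an adjusted p under 0.05. The open points are both against RANKL at 48 h (1.10) and 72 h against 48 h in PBS (-0.16).

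Ordered by mean, the groups ran from PBS at 72 h and PBS at 48 h through vesicles at 48 h, vesicles at 72 h, RANKL at 48 h, both at 48 h and RANKL at 72 h to both at 72 h. Of the 28 pairs of groups, 25 differed past the threshold, and of the 7 pairs of neighbours 4 did. The 3 neighbours that did not were the PBS groups, RANKL and both at 48 h, and both at 48 h and RANKL at 72 h (adjusted p = 0.509). In that last pair the libraries overlapped, and RANKL at 72 h differed from both at 48 h by 0.27 on the log2 scale with a 95% interval of -0.28 to 0.83.

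How the 2 stimuli combined depended on the scale. On the RPKM scale, PBS plus the separate increases gave 104 RPKM at 48 h, and the combination was at 188 RPKM, 84.0 ± 20.8 (SE) RPKM above the sum and 1.81 times as high. At 72 h the sum was 275 RPKM and the combination 549 RPKM, 274 ± 135 (SE) RPKM above it and 2.0 times as high. Without 1 library of 72 h the excess ran from 160 RPKM without combination replicate 1 to 388 RPKM without combination replicate 2, and over the 16 choices of 1 library a group from 84.8 to 464 RPKM. At 48 h the excess was 63.3 RPKM without combination replicate 1 and 104.7 RPKM without the combination column assigned by its name. No test was run on this scale. On the log2(RPKM + 1) scale the direction was the opposite. The combination lay -2.39 ± 0.36 from the sum of the separate log2 changes at 48 h (limma, adjusted p = 0.0749). At 72 h it lay -3.41 ± 0.36 from that sum (limma, adjusted p = 0.00524). Multiplying the folds of the RPKM means would have given 2214 and 16610 RPKM. That product leaves out the 1 added before the log2, so it is not the level that the contrast tested. At 48 h the 1 gene called in this contrast was Mmp8, a collagenase, with 1.73 ± 0.16 (limma, adjusted p = 0.00115). At 72 h Acp5 was the 1 gene called among 10365, or 0.00965%. How many genes were called at 72 h changed when 1 library was left out, so Acp5 being the only one depends on the libraries included. The 72 h call was lost without vesicle replicate 1 of 72 h (-3.27, adjusted p = 0.0518) and when only the groups of 72 h were fitted (adjusted p = 0.199). At 48 h the value passed the threshold with a pseudocount of 0.1 (-3.40, adjusted p = 0.0189), with libraries rescaled to the same sum (-2.42, adjusted p = 0.0411) and with only the groups of 48 h (adjusted p = 0.00699). No other alternative run brought the 48 h value past it. Without the combination column assigned by its name the value was -2.23, and with the replicate block, which also leaves that column out, -2.25.

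**Figure D3:**
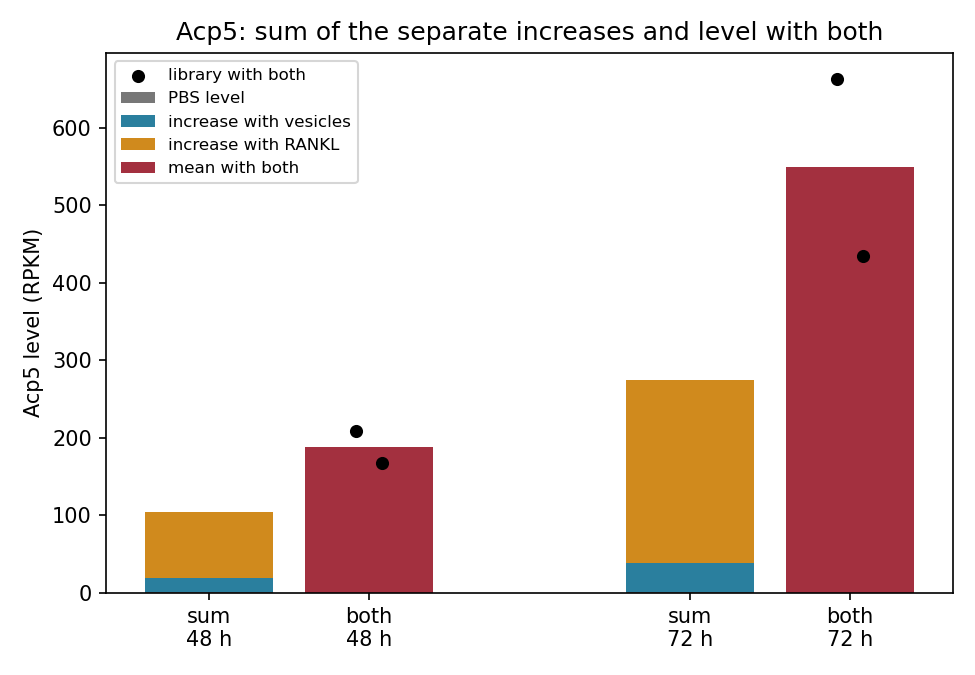
Acp5 in RPKM at 48 h and 72 h: the left bar of each pair stacks the PBS level, which is too low to see, and the mean increases with vesicles and with RANKL; the right bar is the mean with both, with its 2 libraries as points. The combination stands at 188 against 104 RPKM at 48 h and at 549 against 275 RPKM at 72 h.

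The other acid phosphatases did not share these levels. The table held 5 of 7 listed members of the name: Acp1, a cytosolic low molecular weight phosphatase, Acp2, the lysosomal acid phosphatase, Acp6, which acts on lysophosphatidic acid, Acp5, and the prostatic enzyme under its older symbol Acpp, which did not pass the filter on low values. Group means ran only from 12.6 to 17.6 RPKM for Acp1, from 6.97 to 13.5 for Acp2 and from 3.33 to 5.37 for Acp6. With RANKL at 48 h Acp2 fell (-0.74 on the log2 scale, adjusted p = 0.00103), from 13.5 ± 0.371 to 7.72 ± 0.662 RPKM, while Acp1 differed by -0.02 and Acp6 by -0.02 and neither was called. With vesicles at 72 h 3 of the 4 tested members were called higher: Acp5, Acp2 by 0.50 (adjusted p = 0.016) and Acp6 by 0.33 (adjusted p = 0.026). Fewer members were called whichever of the PBS or vesicle libraries of 72 h was left out. Pearson's r with Acp5 over the 16 libraries was -0.58 for Acp1, -0.37 for Acp2 and -0.01 for Acp6.

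Genes were ranked by Pearson's r with Acp5 over the 16 libraries on the log2 scale among 6949 genes that reached 5 RPKM in some group. This describes pattern only, since libraries of a group share treatment and time, and no p is given. The first was Atp6v0d2, a subunit of the proton pump of osteoclasts that is also needed for their fusion, with r = 0.995. It was followed by Fosl2, an AP-1 factor (0.987), Atp2a3, a calcium pump of the endoplasmic reticulum (0.984), Abcb4, a phospholipid transporter (0.981), and Pkn3, a protein kinase (0.979). Srgap3, Rilpl1 and Plcb4 stood at 0.973 each, Acy1 at 0.963 and the chemokine receptor Cxcr3 at 0.962. In all, 19 genes had r of 0.95 or more and 88 had 0.9 or more. The 5 most opposite genes were Tex2 (-0.967), Snx2 (-0.956), Tubb2a (-0.956), Calcrl (-0.955) and Igf1 (-0.950), and 71 genes were at -0.9 or below.

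Atp6v0d2 moved with Acp5 in nearly every group. It was at 0.413 and 0.518 RPKM in PBS and 63.8 and 53.3 RPKM with RANKL at 48 h, and at 16.7 and 10.8 RPKM with vesicles. At 72 h it was at 1.54 and 0.779 RPKM in PBS, 38.1 and 19.5 RPKM with vesicles, 106 and 162 RPKM with RANKL and 313 and 226 RPKM with both. The ratio of Acp5 to Atp6v0d2 stayed between 1.09 and 2.12 in 14 libraries and was 0.416 and 0.562 in the PBS libraries of 72 h. Atp6v0d2 rose in each comparison of a single stimulus with PBS, from 3.31 ± 0.32 for vesicles at 48 h (adjusted p = 2.1e-04) to 5.96 ± 0.32 for RANKL at 72 h (adjusted p = 4.5e-07). Adding vesicles to RANKL gave 1.19 at 48 h (adjusted p = 0.13) and 1.02 at 72 h (adjusted p = 0.11).

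**Figure D4:**
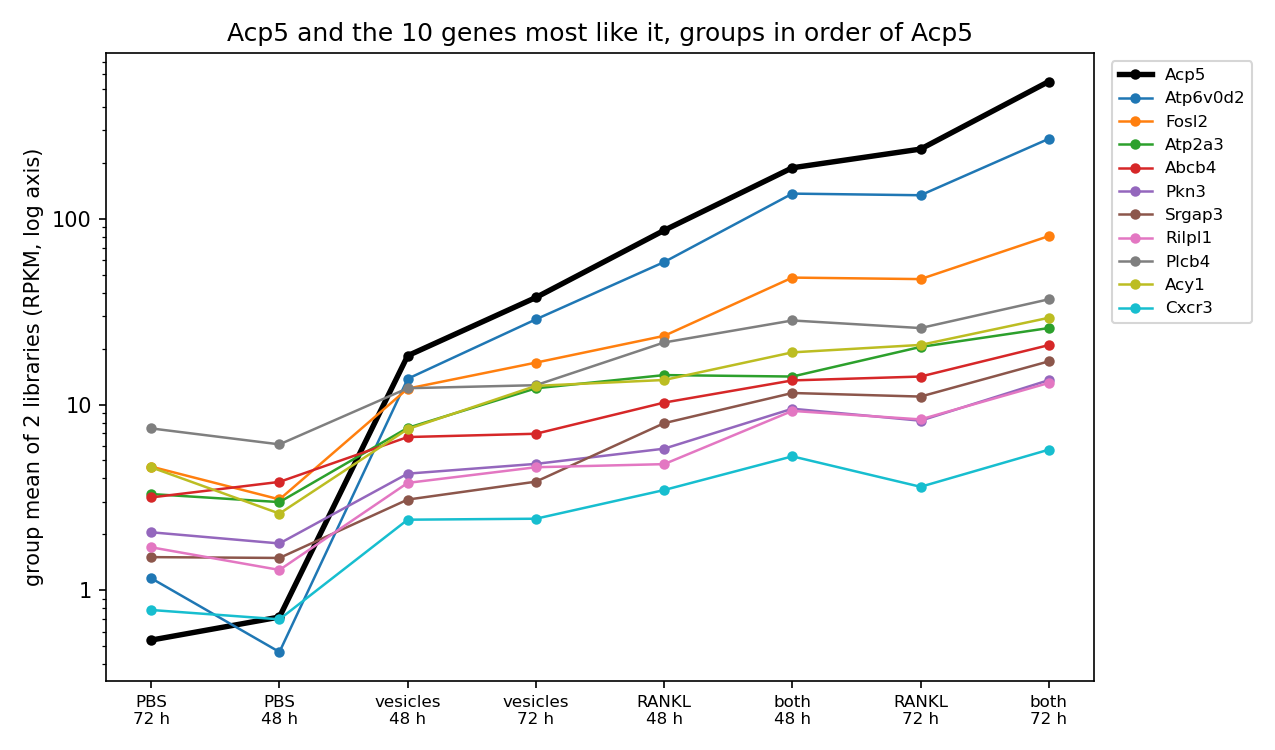
Group means in RPKM (log axis, 2 libraries each) of Acp5 and of the 10 genes with the highest Pearson's r with it over 16 libraries, with the groups in the order of Acp5. Atp6v0d2 runs just under Acp5 in the treated groups, up to 270 against 549 RPKM; the other 9 genes span smaller ranges.

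RefSeq windows were found for 9 of these 10 genes, 10 windows in all. The NFAT letters seen before each Acp5 start were in 4 of them, or 40%, against 55.6% of all windows. The PU.1 letters were in 3, the E-box in 1 (Acy1), the AP-1 letters in 1 (Pkn3) and the MITF core in 0.

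The lists that follow were read against all 10365 genes, of which RANKL raised 6.47% and lowered 8.29% at 48 h and 9.73% and 9.13% at 72 h. Vesicles raised 0.608% and lowered 0.685% at 48 h and 10.4% and 7.83% at 72 h, and vesicles added to RANKL raised 0.27% and 1.3%. Leaving out 1 library also changed how many of all genes were called, most widely in the 72 h comparisons with vesicles. The shares above are from the fit of all 16 libraries and are no background for a count without 1 library. A list count that changes without a library is therefore not by itself particular to that list. Some genes are in more than 1 list: Ctsk, Atp6v0d2, Hmox1 and Csf1r.

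Resorption genes, the proteases and pump subunits with which osteoclasts act on bone, passed the test in part. Of 19 tested members RANKL raised 6 and lowered 0 at 48 h (median 0.21, against 0.06 over all genes) and 13 rose at 72 h (median 0.83); without RANKL replicate 2 of 72 h 7 members were called, without RANKL replicate 1 17, and without a library at 48 h 4 or 5. With vesicles alone 1 rose at 48 h and 4 at 72 h, the latter 1 without PBS replicate 2 or vesicle replicate 1. Vesicles added to RANKL gave no call at 48 h and 2 at 72 h (Itgav, 1.10, and Slc4a2, 0.79), a count of 14 without RANKL replicate 2 and of 0 without RANKL replicate 1 or either combination library. Ctsk, the main collagenase of osteoclasts, was at 2.17 ± 0.0827 RPKM in PBS and 24.5 ± 5.65 RPKM with RANKL at 48 h, and at 131 ± 91.9 RPKM with RANKL and 331 ± 116 RPKM with both at 72 h. It rose with RANKL by 2.99 at 48 h (adjusted p = 0.0014) and 4.90 at 72 h (adjusted p = 7.2e-05), and vesicles alone at 48 h gave 0.80 (adjusted p = 0.65). Mmp9, a gelatinase, rose with RANKL by 2.73 and 3.40 and differed with vesicles alone by 0.05 at 48 h (adjusted p = 0.99) and 0.30 at 72 h (adjusted p = 0.58).

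Nfatc1, known as a direct activator of Acp5, was already expressed in PBS cells, at 12.0 ± 1.38 RPKM at 48 h and 11.3 ± 0.618 RPKM at 72 h. RANKL raised it to 97.6 ± 5.35 and 101 ± 13.9 RPKM, by 2.93 and 3.04 on the log2 scale (adjusted p = 7.2e-07 and 4.5e-07). With vesicles it was at 46.7 and 49.7 RPKM at 48 h, a rise of 1.93 (adjusted p = 9.6e-05). At 72 h it had fallen to 19.7 and 31.1 RPKM, -0.93 ± 0.17 from 48 h (adjusted p = 0.00371), in the same libraries in which Acp5 rose from 18.3 to 37.7 RPKM. The ratio of Acp5 to Nfatc1 was 0.0374 to 0.0674 in PBS. With vesicles it was 0.326 to 0.439 at 48 h and 1.09 to 2.11 at 72 h. It rose with time under RANKL as well, from 0.842 to 0.938 at 48 h to 1.83 to 2.80 at 72 h. With both it was 1.19 to 1.42 at 48 h and 3.48 to 5.12 at 72 h. Both vesicle libraries of 72 h are among the 5 with a higher ribosomal share, whose part in the changes with vesicles was not tested. Pearson's r between Nfatc1 and Acp5 was 0.936.

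**Figure D5:**
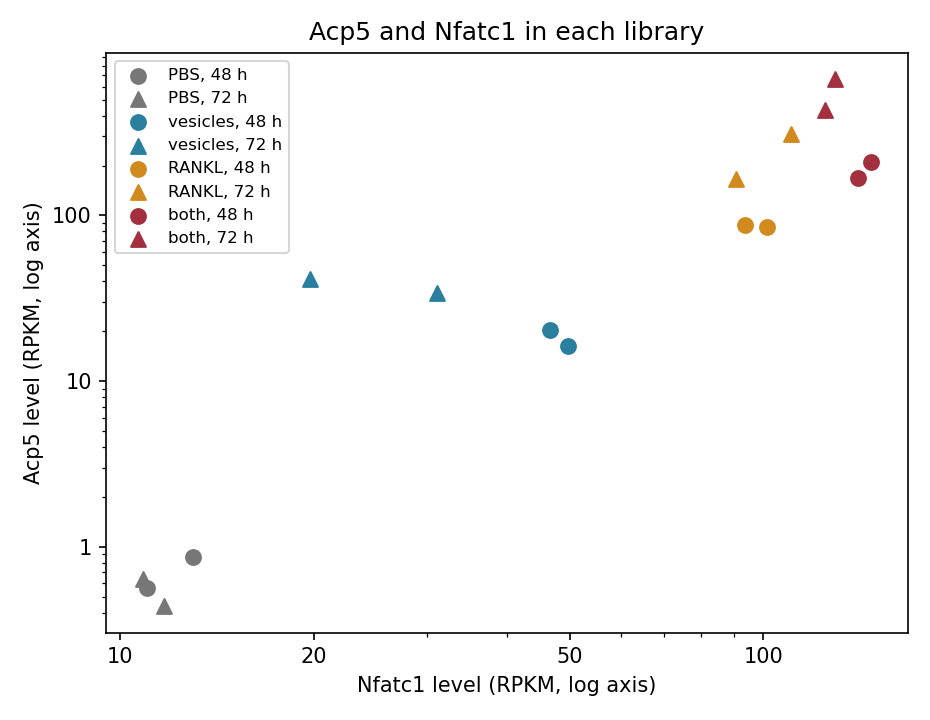
Acp5 against Nfatc1 in RPKM (both axes log) in the 16 libraries; circles are 48 h and triangles 72 h. From 48 h to 72 h the vesicle libraries move left and up, from 46.7 and 49.7 to 19.7 and 31.1 RPKM of Nfatc1.

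Among the 19 tested transcription factors of the osteoclast and of the Acp5 promoter, RANKL raised 9 and lowered 3 at 48 h (median 0.39), and 8 rose and 1 fell at 72 h (median 0.12). Without RANKL replicate 2 of 48 h, 5 members were called at that time in place of 12. Vesicles alone raised 4 at 48 h, and at 72 h 5 rose and 1 fell, 1 in all without PBS replicate 2. Fosl2 was at 3.09 ± 0.516 RPKM in PBS and 23.4 ± 0.887 RPKM with RANKL at 48 h, and rose by 1.69 with vesicles (adjusted p = 3.8e-04) and by 2.59 with RANKL (adjusted p = 3.1e-06). Jdp2, an AP-1 partner needed for RANKL-driven differentiation, rose by 1.58 with vesicles (adjusted p = 9.6e-05) and by 2.49 with RANKL at 48 h (adjusted p = 7.2e-07). Jdp2 and Fosl2 were also the 2 members called when vesicles were added to RANKL at 48 h, by 0.98 (adjusted p = 0.0078) and 1.01 (adjusted p = 0.029); neither call was made without any 1 of the 4 libraries. At 72 h Fosl2 was the 1 called, by 0.80 (adjusted p = 0.04), with 6 called without RANKL replicate 2 and 0 without RANKL replicate 1 or combination replicate 1. Mitf rose with RANKL by 0.79 at 72 h (adjusted p = 8.3e-04). Spi1, which encodes PU.1, rose by 0.39 at 48 h (adjusted p = 0.01), which was not called without 3 of the 4 libraries, and its r with Acp5 was 0.571.

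Repressors of osteoclast genes gave 4 falls and 0 rises of 12 tested with RANKL at 48 h (median -0.59) and 3 falls and 1 rise at 72 h (median -0.14; 2 calls without RANKL replicate 2). With vesicles alone there were 0 calls at 48 h, 3 without PBS replicate 1, and 1 fall at 72 h (Zfp36), which was lost without PBS replicate 2 or either vesicle library. Irf8, which holds NFATc1 down in precursors, fell with RANKL from 6.42 ± 0.0207 to 0.884 ± 0.108 RPKM at 48 h (-1.98, adjusted p = 2.8e-04) and again at 72 h (-1.64, adjusted p = 0.0013). With vesicles alone at 48 h Irf8 differed by -0.18 (adjusted p = 0.93).

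Of 12 genes for processing and sorting of the enzyme, RANKL raised 3 and lowered 5 at 48 h (median -0.18), 4 in all without PBS replicate 1 or either RANKL library, and 3 rose and 3 fell at 72 h (median -0.11). Ctsk rose as above, while other cathepsins of the list fell at 48 h: Ctsb (-1.98, adjusted p = 9.5e-05), Ctsl (-1.5, adjusted p = 1.9e-04) and Ctss (-1.16, adjusted p = 0.0028). Vesicles gave 0 calls at 48 h and 1 at 72 h, which was Ctsk, and 0 without PBS replicate 2 or vesicle replicate 1. The substrates in bone matrix had 1 tested member of 6, Spp1, which encodes osteopontin. With RANKL, Spp1 went the other way from Acp5: it was at 2184 ± 314 RPKM in PBS and 623 ± 99.9 RPKM with RANKL at 48 h, a log2 difference of -1.81 (adjusted p = 1.3e-04), and fell by 2.0 at 72 h (adjusted p = 8.9e-05). With vesicles alone Spp1 differed by 0.11 at 48 h (adjusted p = 0.96) and -0.47 at 72 h (adjusted p = 0.13). Of 11 genes of iron supply and storage 4 fell and 0 rose with RANKL at 48 h (median -0.16). At 72 h 4 fell and 1 rose, 3 in all without RANKL replicate 2. Hmox1, which releases iron from haem, fell at 48 h (-1.52, adjusted p = 2.2e-04), as did Fth1, the ferritin heavy chain (-1.18, adjusted p = 5.0e-04), and Tfrc, the transferrin receptor, differed by 0.02 (adjusted p = 0.96). Vesicles alone gave 0 calls in that list at either time, and up to 2 at 72 h without 1 library.

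Fusion genes gave 3 rises and 1 fall of 9 tested with RANKL at 48 h (median 0.40) and 4 rises and 3 falls at 72 h (median 0.26). Vesicles alone gave 1 rise at 48 h, which was Atp6v0d2, and 2 at 72 h, 1 without PBS replicate 2 or vesicle replicate 1. Ocstamp, a membrane protein needed for fusion, rose with RANKL by 2.46 at 48 h (adjusted p = 2.0e-05) and 3.32 at 72 h (adjusted p = 2.2e-06), and differed with vesicles alone by 0.20 and 0.34 (adjusted p = 0.88 and 0.27). Dcstamp, its partner in fusion, gave 0.97 with RANKL at 48 h (adjusted p = 0.08) and rose by 1.54 at 72 h (adjusted p = 0.0086), which was not called without PBS replicate 1 of 72 h (1.34, adjusted p = 0.0649). Among 12 genes of ITAM costimulation, the second signal of osteoclasts, RANKL raised 0 and lowered 3 at 48 h, and 3 rose and 2 fell at 72 h, 2 in all without RANKL replicate 2. Vesicles raised 0 at 48 h and 5 at 72 h, 0 without PBS replicate 2 or vesicle replicate 1. Oscar, a receptor of this class, rose with RANKL by 2.63 at 72 h (adjusted p = 9.8e-04).

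Of 20 components of RANK signalling RANKL raised 5 and lowered 1 at 48 h (median 0.09), 2 in all without RANKL replicate 2, and 3 rose at 72 h, 1 without RANKL replicate 2. Vesicles alone gave 0 calls at 48 h and 2 rises and 2 falls at 72 h, 0 without PBS replicate 2 or vesicle replicate 1. Tnfrsf11a, the RANKL receptor itself, differed by 0.10 with RANKL (adjusted p = 0.78) and -0.03 with vesicles (adjusted p = 0.99) at 48 h. Macrophage identity genes moved the other way: 11 of 12 fell with RANKL at 48 h (median -1.61) and 8 at 72 h (median -1.09; 4 without RANKL replicate 2). With vesicles alone 3 fell at 48 h, between 1 and 2 without a library, and 2 rose at 72 h, 0 without PBS replicate 2 or vesicle replicate 1. Cd14 fell with RANKL at 48 h (-1.46, adjusted p = 8.2e-04) and differed with vesicles by -0.40 (adjusted p = 0.57). Of 4 tested markers of other blood cells RANKL raised 0 and lowered 2 at 48 h, 1 in all without RANKL replicate 2. At 72 h 1 rose (Itgax) and 1 fell (Pf4), 0 without RANKL replicate 2. With vesicles alone 0 were called at either time. Their 9 members summed to 2.91 to 21.3 RPKM over the libraries, with the neutrophil gene Elane at 0 in 14. When vesicles were added to RANKL, every list other than the transcription factors had 0 members called at 48 h. At 72 h, beside those given above, 1 gene of processing and sorting was called, Gnptab, with 0.69 (adjusted p = 0.022; 5 of the list without RANKL replicate 2, 0 without RANKL replicate 1 or combination replicate 1). The remaining lists had 0, and up to 5 without RANKL replicate 2. A count of 0 by limma can hide changes short of the threshold: at an unadjusted p under 0.05, where 11.2% of all genes were counted, vesicles alone at 48 h had 7 of 12 repressors, 5 of 12 processing genes and 1 each of the iron, ITAM, RANK and other blood lists. Vesicles added to RANKL at 48 h, with 8.05% of all genes counted, had 6 of 19 resorption genes, 6 of 12 repressors, 4 of 12 macrophage genes, 3 of 12 processing genes, 2 each of the fusion and ITAM lists, and 1 each of the acid phosphatase (Acp5), iron and RANK lists. At 72 h, for lists with 0 called, vesicles alone had Spp1, 1 of 11 iron genes and 0 of 4 other blood markers, against 36.4% of all genes. Vesicles added to RANKL at 72 h, against 21.1% of all genes, had 6 of 12 macrophage genes, 4 of 12 repressors, 4 of 12 ITAM genes, 3 of 11 iron genes, 3 of 9 fusion genes, 2 of 20 RANK components, 2 of 4 other blood markers and 0 of 1 substrate.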

How the data were processed

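Sequencing libraries were made from total RNA of RAW264.7 cells with an mRNA library kit, per the labels' protocols, and the submitters' processing notes name FastQC, HISAT2 and Partek and the human builds GRCh38 and hg38, although the table's symbols are mouse. The deposited table holds 1 log2 value per gene and library. It was taken as log2(RPKM + 1) because, at a single depth per library, 83.1% of 9431 low values of single-exon genes come out within 0.05 of whole reads with base 2, against 70.9% with base e and 31.9% with base 10. No unit is stated by the authors, so the scale, the RPKM values, the depths and the read numbers are inferred. Counting by strand is not given in the sources used here.

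The planned count test was not used because the values are not counts. Genes with at least 1 RPKM in 2 libraries were tested (10365, and Acp5 reached it in 12). They were fitted with limma 3.58.1 in R 4.3.3, with an intensity trend and 8 group means. Benjamini-Hochberg adjustment was over all genes tested. One combination column of 48 h matches no sample title; the plus sign and time in its name put it in its group, and no replicate number was taken from it. Named genes were the acid phosphatases, 15 osteoclast genes, the 10 most like and 5 most opposite by Pearson's r, and up to 4 of each of the 12 lists with tested members by p with RANKL at 48 h; cell type markers were named for their levels, and Mmp8, Itgav, Slc4a2, Gnptab, Zfp36, Cd14 and Tfrc were named after their values were seen. Acp5, the lists and the tests were chosen with earlier results of these data known. Alternatives were another pseudocount, other filters, rescaling, fewer groups, a replicate block and leaving out each library. A few results on single genes of these lists are not reported here.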

Additional observations from a re-analysis of the deposited data

Results flagged for a closer look

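Acp5 at 72 h had a vesicle effect that differed between cells with and without RANKL: the difference of differences was -3.41 ± 0.36 on the log2(RPKM + 1) scale (limma, adjusted p = 0.00524). Vesicles raised Acp5 by 4.65 without RANKL and by 1.24 with it, in 2 libraries of 2 in each case. On the RPKM scale the same means gave a difference of the opposite sign, 274 ± 135 (SE) RPKM, or 160 and 388 RPKM without 1 or the other combination library. The log2 call was lost without vesicle replicate 1 of 72 h (-3.27). It was also lost when only the groups of 72 h were fitted (-3.41, limma, adjusted p = 0.199).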

How the results depend on the processing

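The rises of Acp5 with RANKL, with vesicles and with both over PBS, and the gaps between both and vesicles and between vesicles and RANKL, kept their direction and side of the threshold at both times under every alternative run. The difference between both and RANKL was no longer called at 72 h with a pseudocount of 0.1 (1.24), no filter on low values (1.24) or only the compared groups fitted (1.24), and ranged from 0.79 to 1.69 without 1 library; at 48 h it became called with only the compared groups (1.10, adjusted p = 0.0339). The change with time under RANKL was no longer called without the filter (1.38) or with only the compared groups (1.38), and ranged from 0.93 to 1.82 without 1 library; under vesicles it ranged from 0.84 to 1.16. Additivity on the log2 scale at 48 h became called with a pseudocount of 0.1 (-3.40), with rescaled libraries (-2.42) and with only the compared groups (-2.39); at 72 h it was no longer called with only the compared groups (-3.41) and ranged from -3.85 to -2.96 without 1 library. On the RPKM scale the sign reversed, to 84.0 at 48 h and 274 at 72 h. The change of the RANKL effect with time ranged from 1.1 to 1.98 without 1 library. Of the 10 genes most like Acp5, 4 were among the first 10 by Spearman's rank correlation, 5 by group means, 3 in the 48 h libraries and 3 in the 72 h libraries. The cause of these shifts was not tested. Only some of these settings use fewer libraries in the fit.

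The replicate numbers are shared between groups without any statement that they pair samples. Correlations of replicate 1 deviations between groups ran from -0.039 to 0.529 over 21 pairs of groups. A fit with the replicate block, over the 15 libraries whose column matches a sample title, changed the call of none of 20 Acp5 comparisons: both against RANKL gave 1.24 at 72 h (adjusted p = 0.0489) and 1.24 at 48 h (adjusted p = 0.237).

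The PBS level rests on 17.6 to 32.7 estimated reads per library. These numbers take the merged exon length of 2.03 kb. The longest annotated Acp5 transcript is 1.45 kb, and a shorter length would give fewer reads. The unit is inferred and 2 libraries a group limit every test.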
